A study of Homo sapiens with 2 samples.

Results

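Regions enriched for H3K4me3 were examined on the human sequences that are not placed in an assembled chromosome. The members are all regions of both peak lists whose sequence name starts with chrUn_ (unplaced contigs, with no chromosome assigned) or ends with _random (unlocalized contigs, with a chromosome but no position in it). They numbered 178 of 20567 regions in the wild-type list (0.865%) and 235 of 20509 in the knockout list (1.15%). The cells were HEC-1-B, an established human uterine (endometrial) adenocarcinoma line. One library came from wild-type cells and 1 from ZNF143KO cells, in which the zinc-finger transcription factor ZNF143 was knocked out. Both were grown in the same medium without a stated treatment and precipitated with the same H3K4me3 antibody, and the labels used here do not say whether the knockout is a single clone. With 1 library per genotype no difference between genotypes has a replicate check, and none was tested. Positions are hg19, counted from 1.

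H3K4me3, trimethylation of lysine 4 on histone H3, marks the promoters of active genes and is concentrated around transcription start sites. Unplaced and unlocalized contigs hold sequence that could not be assembled into chromosomes, often because it is repeated: satellite arrays, segmental duplications and ribosomal DNA. Ribosomal DNA encodes the 18S, 5.8S and 28S ribosomal RNAs in 1 long precursor made by RNA polymerase I. It lies in tandem arrays on the short arms of the acrocentric chromosomes, and only a part of its copies is transcribed in a given cell. The contig chrUn_gl000220 carries ribosomal DNA. RefSeq's GRCh38.p14 gene table lists the precursor gene RNA45SN5 with RNA18SN5, RNA5-8SN5 and RNA28SN5 on a sequence without a chromosome. There they follow the long noncoding RNA LOC100507412 and precede the pseudogenes LOC100286895, RNA18SP3, RNA5-8SP8 and LOC124905315. This table is of another build, so it was used for names and neighbours only and no region was assigned to a gene.

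The fold, the −log10 p and the −log10 q of each region are the authors' own and were used to describe and rank regions within a list. The fold was modelled as the height of the stacked fragments at the summit, called the pileup, over a local background rate. The pileup and the local rate were recovered from the fold and p columns. The lowest local rate in a list, 1.40 fragments per base for wild type and 3.25 for the knockout, is called the genome background rate. Its ratio, 2.31, is an inferred measure of relative depth. The lowest pileup called in any region was 7 fragments for wild type and 11 for the knockout. Reads from repeated sequence can align in several places, and how such reads were placed is not given in the sources used here.

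The contigs carried narrower and lower regions than the assembled chromosomes in both genotypes. Wild-type regions had a median width of 368.5 bp (quartiles 238.75 and 582.75 bp), against 883 bp on the assembled chromosomes. For knockout regions it was 396 bp (quartiles 256 and 717 bp), against 1003 bp. The median fold was 4.97 against 11.5 in the wild-type list and 3.84 against 11.2 in the knockout list. Within their own list the members stood at a median fold percentile of 12.8 in wild type and 9.52 in the knockout. The median −log10 q was 14.8 in wild type and 25.2 in the knockout, against 129.8 and 231.5 on the assembled chromosomes, and the median −log10 p was 17.3 and 27.6. The median pileup was 51.5 and 103 fragments, against 197 and 355. The members were not uniformly weak. In the highest fold decile of their list lay 11 wild-type and 13 knockout regions, beside 78 and 119 in the lowest decile.

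Regions were found on 31 contigs, 21 unplaced and 10 unlocalized. All 31 were marked in the knockout list, and 26 of them in the wild-type list. The wild-type regions covered 83.3 kb and the knockout regions 129.5 kb. At least 10 regions in each list lay on 5 contigs, and none of the other contigs held more than 7. The most regions lay on chr9_gl000199_random, with 48 in wild type and 63 in the knockout. It was followed by chrUn_gl000225 with 20 and 46, chrUn_gl000220 with 16 and 21, chrUn_gl000216 with 14 and 22, and chrUn_gl000226 with 14 and 15. Together these 5 contigs, a grouping made after the counts were seen, held 112 wild-type and 167 knockout regions. The other contigs held 66 and 68. The knockout thus had a net 57 more regions on contigs than wild type, and a net 55 more on these 5 contigs. Of the 26 contigs marked in both lists, 8 held more regions in the knockout, 6 held fewer and 12 held the same number.

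**Figure D1:**
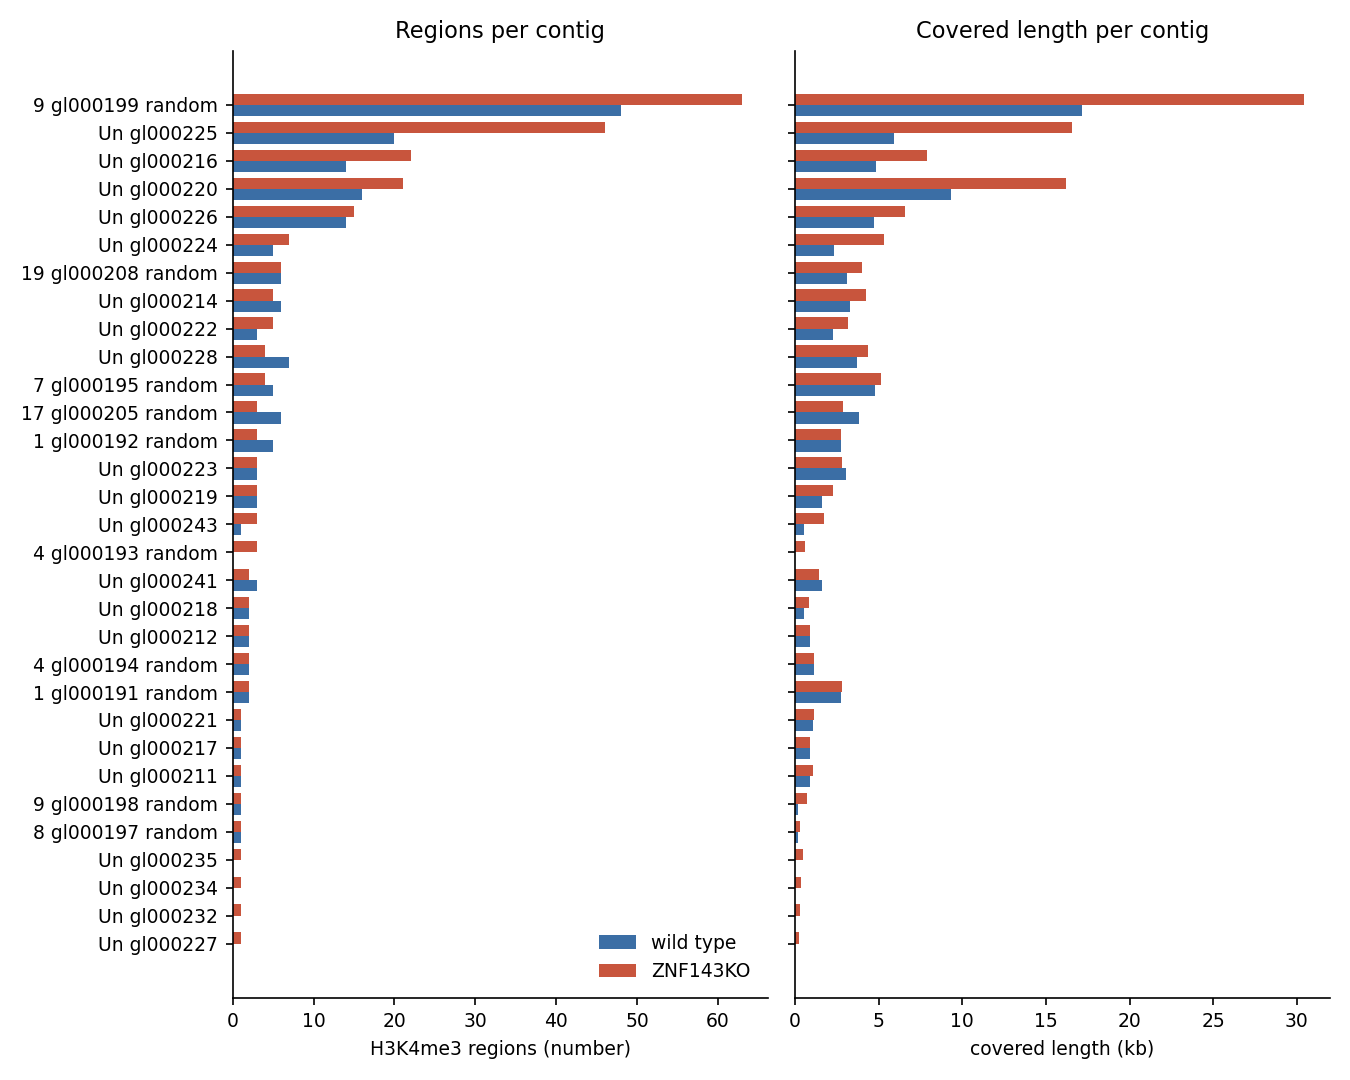
Number of H3K4me3 regions (left, horizontal axis in regions) and covered length (right, horizontal axis in kb) on each of the 31 contigs, with 1 wild-type library in blue and 1 ZNF143KO library in red. The 5 contigs at the top hold 112 of 178 wild-type and 167 of 235 knockout regions.

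The 5 contigs with most regions differed in how densely they were called and how high the regions stood. On chrUn_gl000226 the regions lay within 13.97 kb in wild type and covered 33.6% of that stretch, and within 14.2 kb in the knockout, where they covered 46.5%. None of them exceeded a fold of 3.98 in wild type or 3.97 in the knockout. Their pileups were high all the same, from 147 to 286 fragments in wild type and from 441 to 944 in the knockout, and the local background rate was a median of 56.2 times the genome rate in wild type and 91.4 times in the knockout. On chr9_gl000199_random the regions were spread over 137.7 kb in wild type and 138.9 kb in the knockout, with coverage of 12.5% and 21.9%. Its local rates had a median of 9.99 and 13.5 times the genome rate, and the median fold was 3.59 and 3.05. Regions on the assembled chromosomes had median local rates of 11.8 times the genome rate in wild type and 9.62 times in the knockout. On chrUn_gl000225 and chrUn_gl000216 the local rate was only a few times the genome rate, with medians of 2.34 and 2.07 in wild type and 2.99 and 2.98 in the knockout. The median fold was higher there, at 5.99 and 6.98 in wild type and 5.19 and 6.23 in the knockout.

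Among these 5 contigs the covered length differed most in proportion on chrUn_gl000225. It was 5892 bp in wild type and 16541 bp in the knockout, 2.81 times as much. All 20 wild-type regions there overlapped a knockout region, where 5.43% of the whole wild-type list did not. Of the 46 knockout regions, 26 overlapped none in wild type, against 9.96% of the whole knockout list. Pileups ran from 13 to 56 fragments in wild type and from 24 to 127 in the knockout.

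Regions of high fold also occurred on these contigs. On chr9_gl000199_random the region from 33984 to 34627 had a pileup of 231 and a fold of 25.02 in wild type, and its knockout counterpart from 33980 to 34927 had a pileup of 576 and a fold of 24.04. The summits of both were at 34461, and the next highest fold on this contig was 9.08 in wild type and 9.10 in the knockout. On chrUn_gl000216 the region from 1189 to 1877 had a pileup of 203 and a fold of 23.1 in the knockout. The wild-type region there, from 1191 to 1878, had a pileup of 73 and a fold of 18.5. On this contig it did not stand alone, since the region from 169207 to 169695 had a fold of 19.1 in wild type and its counterpart from 169205 to 169777 a fold of 19.1 in the knockout.

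Outside the ribosomal DNA contig, the regions of highest fold were mostly on contigs with few regions. The highest in wild type was on chrUn_gl000212 from 126220 to 126394, with a fold of 27.0, a −log10 p of 81.9, a −log10 q of 79.2 and a pileup of 64 fragments. The knockout region from 126211 to 126392 had a pileup of 91 and a fold of 21.7. On the same contig the region from 40522 to 41224 was the highest in the knockout, with a fold of 25.97, a −log10 q of 419.2 and a pileup of 410. Its wild-type counterpart from 40520 to 41225 had a pileup of 166 and a fold of 26.1. On chrUn_gl000243 the wild-type region from 25820 to 26326 had a pileup of 139 and a fold of 25.2. In the knockout it extended from 25121 to 26350, at a fold of 21.2 with 262 fragments. On chr7_gl000195_random the region from 137948 to 138793 had a pileup of 1073 and a fold of 23.3 in wild type, and that from 137927 to 138836 had a pileup of 1562 and a fold of 21.3 in the knockout. By pileup this region stood at the 99.9 percentile of the wild-type and the 99.8 percentile of the knockout list, among the highest stacks of either library. At each of these places the fold was above the median of the assembled chromosomes in both lists.

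**Figure D2:**
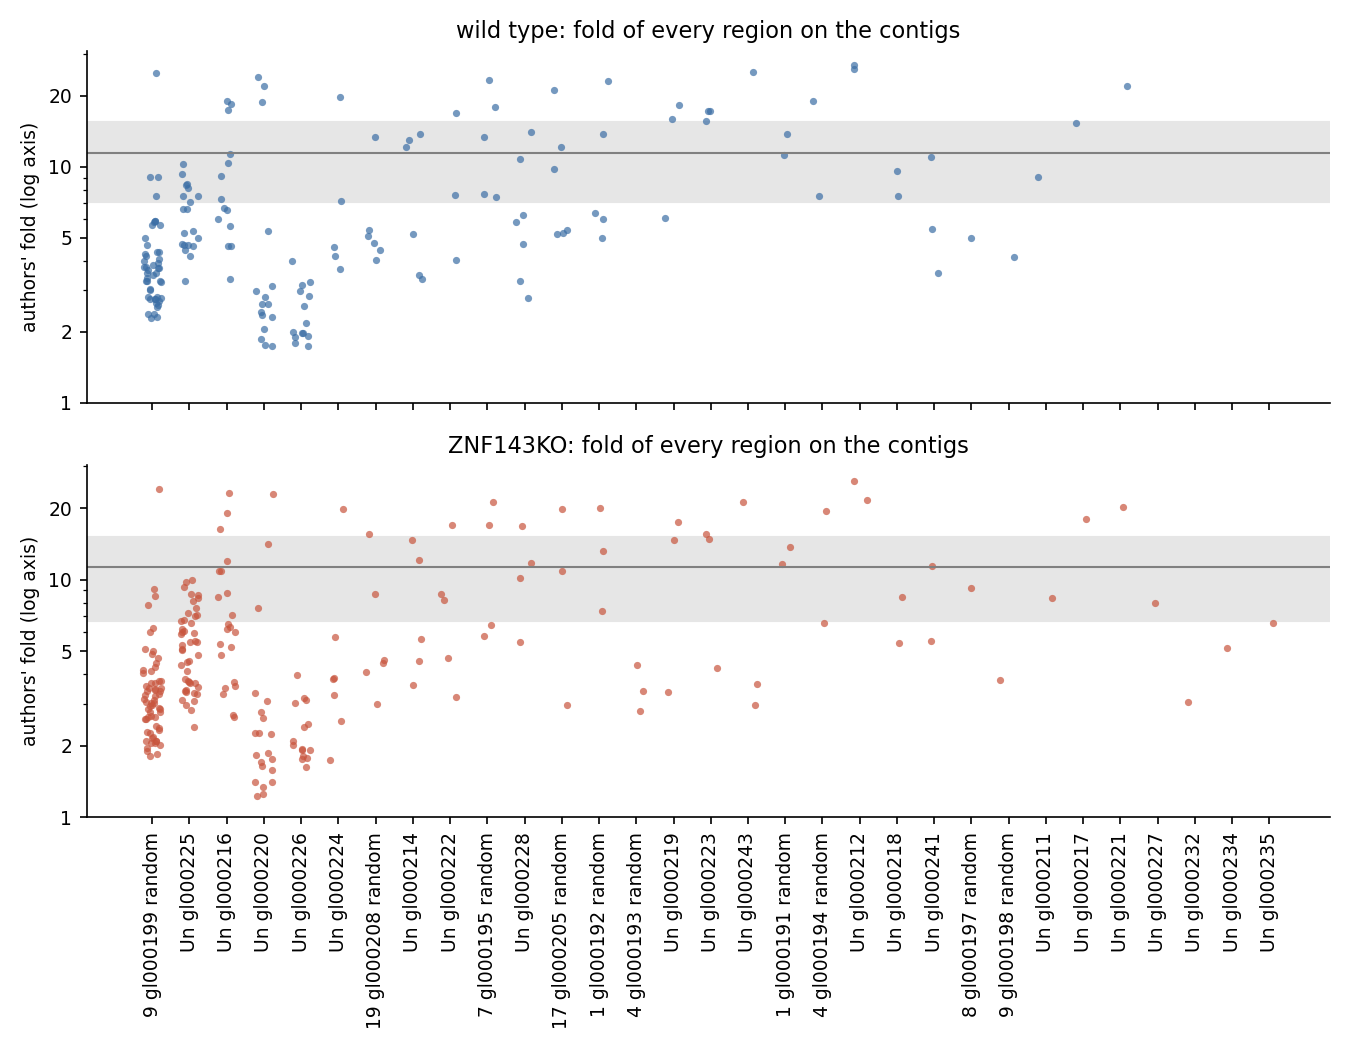
Authors' fold (log axis) of every region on the contigs, by contig, for 1 wild-type library (top) and 1 ZNF143KO library (bottom). The grey line and band give the median and quartiles on the assembled chromosomes, with medians of 11.5 and 11.2. Most regions of the 5 contigs at the left lie below the band, and single regions of those and of other contigs lie above it.

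The ribosomal DNA contig chrUn_gl000220 held 16 wild-type regions over 9326 bp and 21 knockout regions over 16213 bp. Bases called in both lists amounted to 8876, or 95.2% of those called in wild type and 54.7% of those called in the knockout. All 16 wild-type regions overlapped a knockout region (exact Clopper-Pearson 95% interval 79.4 to 100%), and 13 of the 21 knockout regions overlapped a wild-type region (61.9%, 38.4 to 81.9%). Over the whole lists, 94.6% of regions in wild type and 90.04% in the knockout overlapped one in the other list. Such intervals cover counting error only. The regions fell into 2 kinds along the contig, a division made after the values were seen. The first 4 regions in each list, up to position 97445, were separate, while from 101659 on a run of regions with folds of at most 3.11 followed to the last region, ending at 161686.

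The first region of the contig had the largest difference in pileup between genotypes among its loci. In wild type it lay from 6957 to 8527, with a fold of 22.1, a −log10 p of 940.8, a −log10 q of 934.5 and a pileup of 999 fragments (exact Poisson 95% interval 938 to 1063). In the knockout it lay from 7015 to 8265, with a fold of 7.56, a −log10 p of 47.5, a −log10 q of 44.99 and a pileup of 85 (67.9 to 105). Poisson intervals here and below cover counting error only, not differences between libraries. The fold percentile was 96.1 in wild type and 30.1 in the knockout, the largest fall in fold percentile among the one-to-one pairs on the contigs. The summit was at 8045 in wild type and at 7558 in the knockout. The local background rate was lower in the knockout as well, 10.4 against 44.3 fragments per base, although the knockout library was the deeper one by the genome rate.

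The second region differed far less. It lay from 52214 to 53169 at a fold of 24.1 with 610 fragments (563 to 660) in wild type, and from 52266 to 53182 with fold 22.8 and pileup 820 (765 to 878) in the knockout. Its −log10 q was 596.2 and 781.1. The third region, from 93780 to 94020 in wild type and from 93808 to 94033 in the knockout, was small, with a fold of 5.36 and 3.32 and a pileup of 37 and 47. The fourth, from 97087 to 97445 and from 97078 to 97444, had a fold of 18.8 and 14.1 and a pileup of 175 and 325.

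From 101659 on, the ribosomal DNA contig showed low regions on local rates whose median was above that of the assembled chromosomes. The 12 wild-type regions of this stretch had folds from 1.73 to 3.11 and pileups from 48 to 170 fragments. The 17 knockout regions had folds from 1.23 to 3.08 and pileups from 164 to 584. These pileups are not scaled for depth, and the genome background rate was 2.31 times as high in the knockout. The ranges of fold overlapped widely. The local rate ran from 10.5 to 42.1 times the genome rate in wild type and from 16.2 to 89.2 times in the knockout. Its median was 19.2 times in wild type and 34.7 times in the knockout, against 11.8 and 9.62 on the assembled chromosomes. The upper quartiles on the assembled chromosomes were 20.8 and 16.9. Only the knockout median of the stretch lay above the upper quartile. The first region of the contig, outside this stretch, stood at 31.5 times the genome rate in wild type and 3.19 times in the knockout. The −log10 q ran from 2.13 to 31.1 in wild type and from 1.43 to 96.8 in the knockout. In fold percentile these regions reached at most 2.85 in wild type and 4.52 in the knockout, so the whole stretch stood at the bottom of both lists by fold.

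The region of highest pileup in this stretch was the same in both lists. In wild type it ran from 118909 to 119956 at a fold of 2.96 with 170 fragments, and in the knockout from 118818 to 120690 with a pileup of 584 at a fold of 2.78. Elsewhere the knockout list joined or added regions. The knockout region from 101659 to 103989, with fold 2.25 and pileup 196, spanned 3 wild-type regions of fold 2.31 to 2.61, between 101677 and 103965. The wild-type region that followed, from 104356 to 104702 at a fold of 2.41 with 68 fragments, matched a knockout region from 104338 to 105614 with a pileup of 231 at a fold of 2.26. The knockout region from 109624 to 110879, with fold 1.83 and pileup 207, covered a pair of wild-type regions with folds of 1.86 and 2.04 and pileups of 58 and 64.

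The 8 knockout regions without a wild-type partner all lay in this stretch. The first, from 117811 to 118054, had a pileup of 304 and a fold of 1.64. The next, from 135285 to 135476, 138815 to 139034, 143157 to 143722 and 144020 to 144349, had folds of 1.34, 1.25, 1.40 and 1.23 on local rates of 243 to 290 fragments per base. The last, from 148376 to 148695, 156397 to 156579 and 157338 to 157715, had folds of 1.41, 1.71 and 1.86. Of these 8 regions, 7 had a fold below 1.73, the lowest of any wild-type region on the contig.

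The remaining regions of the stretch were paired. The wild-type region from 144844 to 145431 had a pileup of 104 and a fold of 1.75, and the knockout region from 144736 to 145557 a pileup of 349 and a fold of 1.57. The knockout region from 153587 to 154872 had a pileup of 196 and a fold of 1.75, beside a wild-type region from 154486 to 154821 at a fold of 1.73 with 56 fragments. This knockout region began 43963 bp after the start and ended 43993 bp after the end of the one at 109624 to 110879, and the local rates of both were alike, at 112 and 113 fragments per base. At the end of the contig, 3 wild-type regions between 158840 and 161651 had folds of 2.80, 2.62 and 3.11 and pileups of 67, 54 and 48. Their knockout counterparts between 158613 and 161686 had folds of 2.27, 2.62 and 3.08 and pileups of 197, 176 and 164. Pileup and local rate were higher in the knockout in all 3 pairs, while the fold was lower in the knockout in the first pair and nearly the same in the other two.

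**Figure D3:**
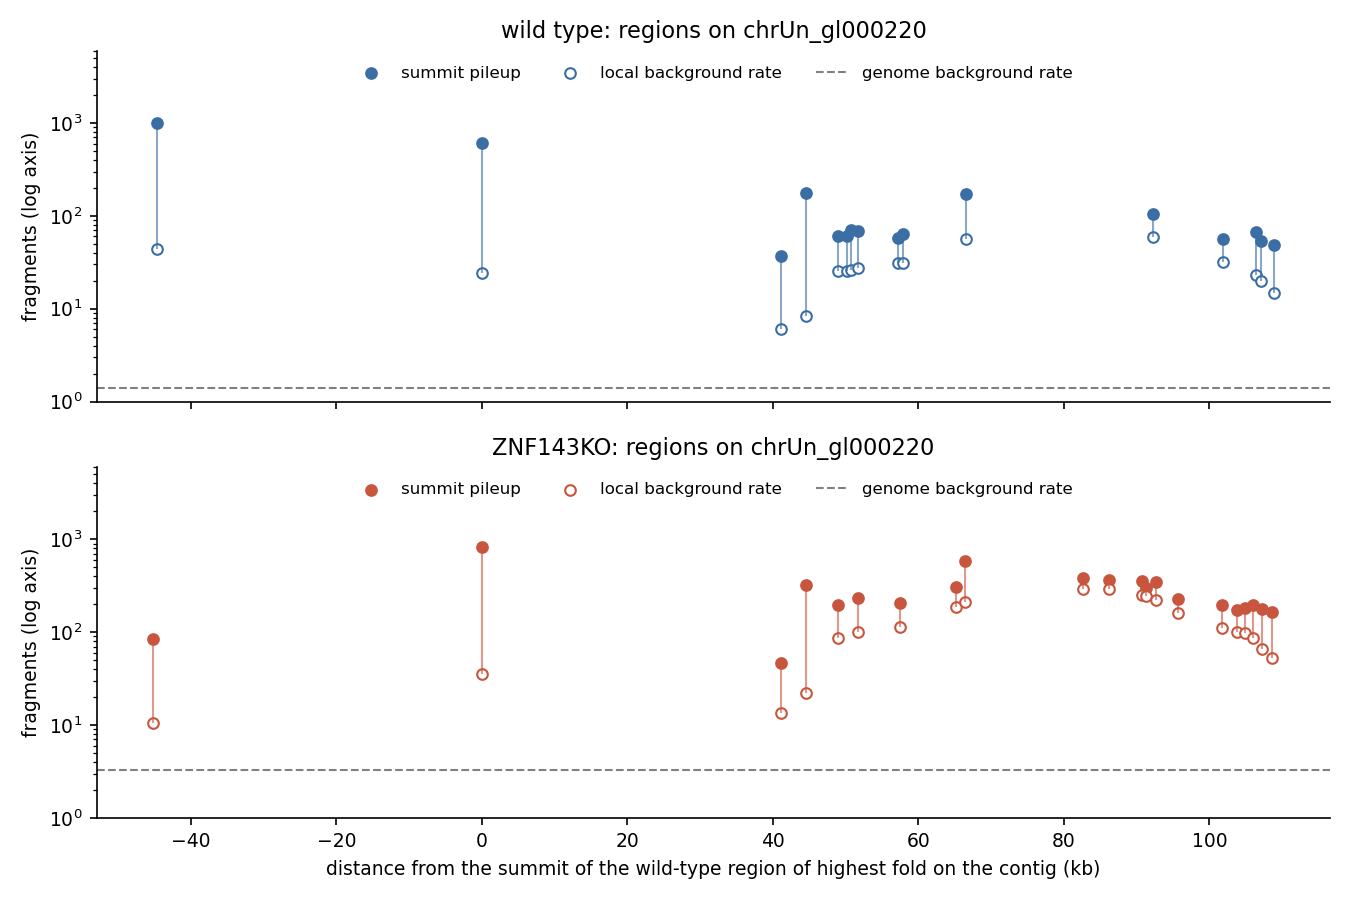
Summit pileup (filled points) and local background rate (open points), both in fragments on a log axis, of every region on chrUn_gl000220 in 1 wild-type library (top) and 1 ZNF143KO library (bottom), against distance in kb from the summit of the wild-type region of highest fold; dashed lines give the genome background rate. The leftmost region has a pileup of 999 in wild type and 85 in the knockout. The run of regions at the right stands on local rates at least 10.5 times the genome background rate in both.

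To compare heights across genotypes, regions of either list within 1 kb of each other were joined into loci, and the highest pileup of each list was taken. Pileup in the knockout was divided by that in wild type, and the log2 of this ratio, less its median over the 16068 loci present in both lists, is called the relative ratio. The median corresponds to a ratio of 1.86. Loci in 1 list only have no relative ratio, and shares of all loci by this ratio are of those in both lists. The contigs held 165 loci, of which 122 were in both lists, 42 in the knockout list only and 1 in the wild-type list only. Of all 18390 loci, 7.81% were in the knockout list only and 4.82% in the wild-type list only. The single contig locus of the latter kind lay on chrUn_gl000241 from 9997 to 10167, with a pileup of 8. The median relative ratio on the contigs was 0.51, and it was above 0 at 95 of 122 loci, against 50% of all loci. When the ratio of the genome background rates is used for centring in place of the median, every value is lower by 0.32 and the contig median is 0.20.

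The contigs divided by the number of their regions also in this respect. On the 5 contigs with most regions the relative ratio had a median of 0.63 (quartiles 0.43 and 0.83) and was above 0 at 69 of 74 loci. By contig the median was 0.60 on chr9_gl000199_random, 0.64 on chrUn_gl000216, 0.73 on chrUn_gl000225 and 0.73 on chrUn_gl000220, and it was 0.83 on chrUn_gl000226, which held only 2 loci. On chrUn_gl000220 only 6 of 10 loci were above 0, against 18 of 18 on chrUn_gl000225 and 12 of 12 on chrUn_gl000216. The 4 loci of chrUn_gl000220 up to position 97445 were below 0, at −4.45, −0.47, −0.55 and −0.0006. With the other centring the median of the 5 contigs was 0.31. On the other contigs the median was 0.03 (quartiles −0.22 and 0.47) over 48 loci, close to that of the assembled chromosomes, and with the other centring it was −0.28. A relative ratio above 1 occurred at 5 loci on the contigs, against 2.58% of all loci. The highest of these, 1.39, was on chrUn_gl000214 from 126005 to 126391, with pileups of 16 and 78.

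A relative ratio below −2 is a knockout pileup more than 4 times lower than the median ratio gives. It occurred at 46 of the 16068 loci in both lists (0.286%), and 4 of these 46 were on contigs. The 886 loci in the wild-type list only have no ratio and are not ranked here. No further contig locus lay below −1, which 2.05% of the loci in both lists did. This quantity and the 4 loci were chosen after the values were seen. The lowest relative ratio of all 16068 loci, −4.94, was on chr17_gl000205_random from 84331 to 88301. Wild type had 4 regions there, with pileups of 265, 275, 267 and 495 and folds of 5.21, 5.40, 5.25 and 9.76. The knockout had 1 region, from 85554 to 86614, with a pileup of 30 and a fold of 2.97. Elsewhere on this contig the wild-type and knockout pileups were closer, with a pileup of 584 in wild type and 928 in the knockout at 33630 to 34842, and of 37 and 64 at 129821 to 130405.

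The next lowest of the loci in both lists was the first region of chrUn_gl000220, at −4.45. The third of the 4 was on chr7_gl000195_random from 30209 to 32507, at −3.58 and in position 14 of these loci from the lowest. Wild type had regions with pileups of 310 and 559 and folds of 7.46 and 13.4 there, and the knockout had 1 region with a pileup of 87 and a fold of 5.81. Elsewhere on that contig the pileups were 38 and 54, 1130 and 1757, and 1073 and 1562 in wild type and knockout. The fourth was on chrUn_gl000223 from 24741 to 25715, at −3.35, with pileups of 93 and 17 and folds of 15.6 and 4.24. Its neighbours at 67781 to 69142 and 118840 to 120109 had pileups of 179 and 262, and of 214 and 408. On these 4 contigs the other loci present in both lists had relative ratios between −1 and 1.

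**Figure D4:**
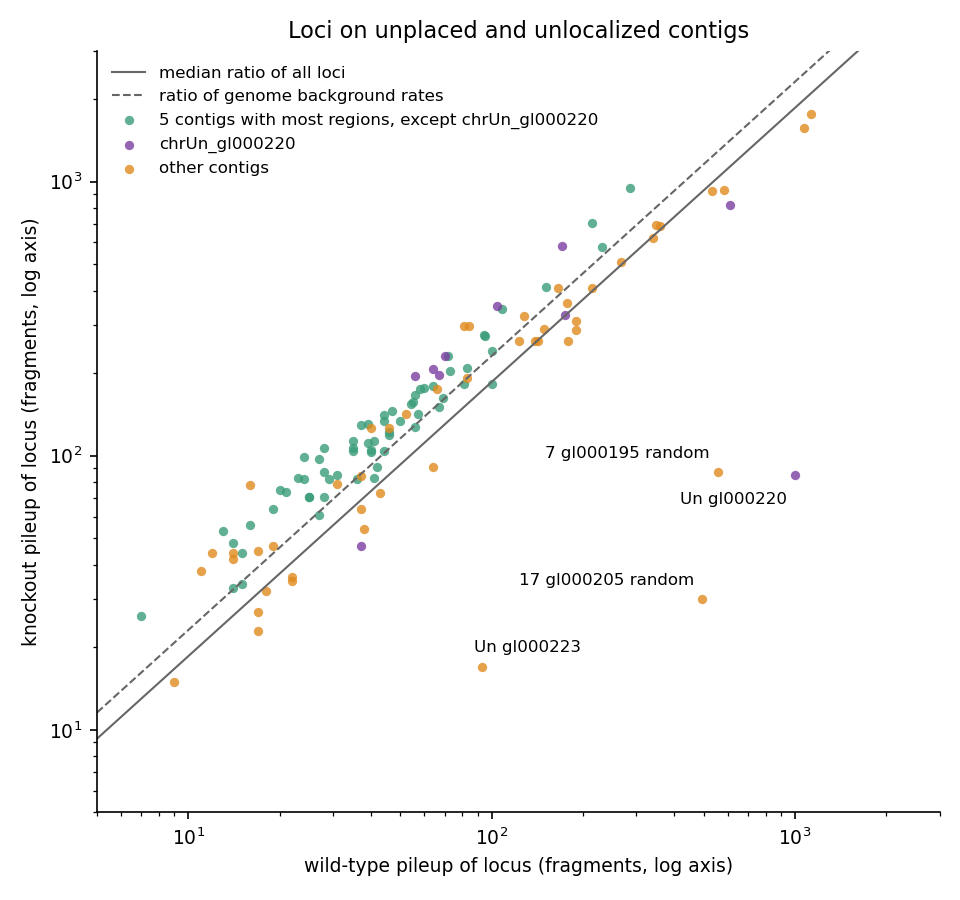
Knockout against wild-type pileup (fragments, both axes log) of the 122 contig loci present in both lists, 1 library per genotype. The solid line is the median ratio of all loci, 1.86, and the dashed line the ratio of the genome background rates, 2.31. The 4 labelled loci lie far below both lines, and most loci of the 5 contigs with most regions lie above the solid line.

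The local background rate differed along with the pileup. Across the 140 one-to-one pairs on contigs, the knockout rate over the wild-type rate had a median of 1.295 after division by the ratio of the genome rates, and exceeded 1 in 113 pairs. Across the 16501 pairs on the assembled chromosomes the median was 0.88, and 21.5% exceeded 1. On the 5 contigs with most regions the median was 1.34 and 95 of 98 pairs exceeded 1, on chrUn_gl000220 it was 1.51 and 8 of 11 pairs did, and on the other contigs it was 0.97 and 18 of 42 pairs did. In the median, the pileup and the rate were thus both higher in the knockout library, relative to the genome rate, on the contigs with most regions. Any control library is not given in the sources used here, so the rate cannot be taken as a measure separate from the pileup. The part of the local rate in the counts of regions was not tested.

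**Figure D5:**
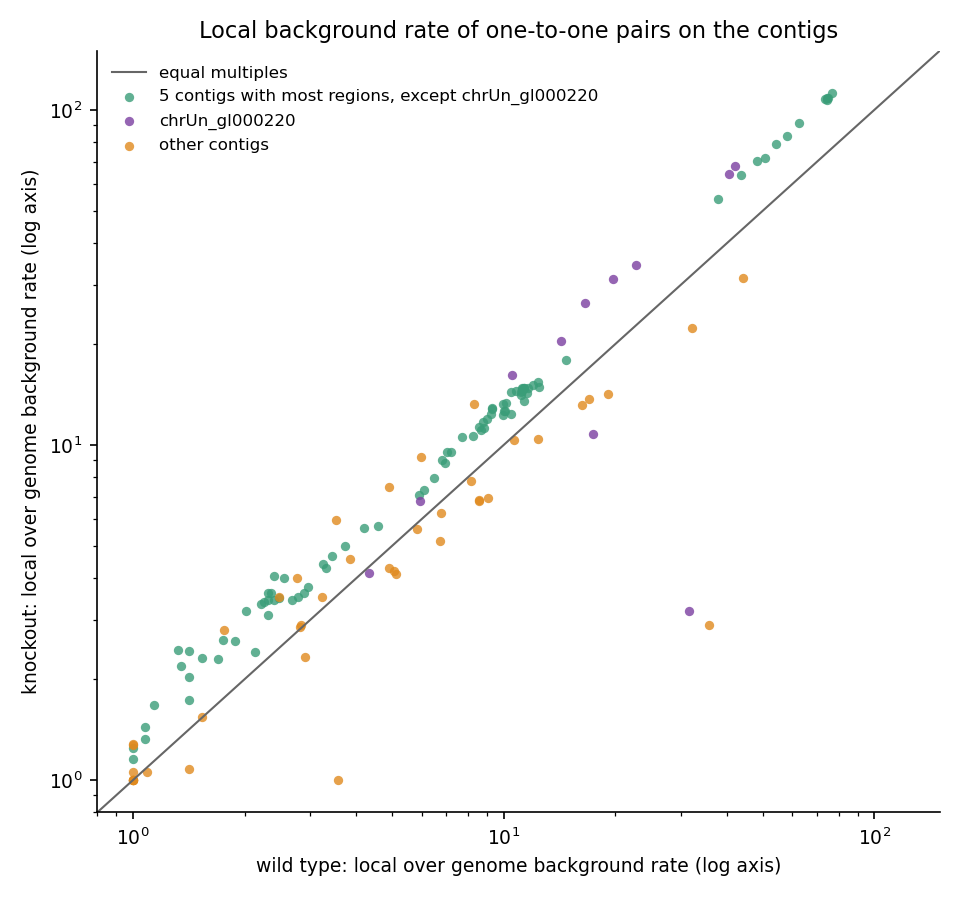
Local background rate as a multiple of the genome background rate, knockout against wild type (both axes log), for the 140 one-to-one pairs of regions on contigs, 1 library per genotype. Of the 98 pairs on the 5 contigs with most regions, including chrUn_gl000220, 95 lie above the line of equal multiples, against 18 of 42 on the other contigs.

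The shift in rank of the pairs differed with the measure. The median shift in fold percentile from wild type to knockout was 1.15 points on the contigs (quartiles −1.27 and 4.27), against 0.03 on the assembled chromosomes. Ranked by pileup it was 7.80 points, against 1.10, and by −log10 q it was 7.71 points, against 0.81. The largest rise by fold was on chr8_gl000197_random, whose only region in either list stood at the 13.5 percentile in wild type and the 38.1 percentile in the knockout. It ran from 15457 to 15621 with a pileup of 11 at a fold of 4.99 in wild type, and from 15333 to 15646 with fold 9.18 and pileup 38 in the knockout. Knockout regions were wider in 122 of the 140 pairs, with a median width ratio of 1.18, against 82.2% and 1.06 on the assembled chromosomes.

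The overlap of the lists on the contigs differed by direction. Without a knockout partner were 8 of the 178 wild-type regions (4.49%, exact interval 1.96 to 8.66%), against 5.43% of the whole wild-type list. Without a wild-type partner were 81 of the 235 knockout regions (34.5%, 28.4 to 40.9%), against 9.96% of the whole knockout list. These intervals treat regions as independent and cover counting error only, not differences between libraries. Of the 81, 26 lay on chrUn_gl000225. With a reciprocal overlap of at least 50% required, 27.5% of contig regions in wild type and 45.1% in the knockout were unshared, against 16% and 15.8% of the whole lists, so the wild-type share was then above that of its list. With a gap of up to 1 kb allowed these shares were 1.124% and 22.1%, against 4.49% and 7.41%. On the 5 contigs with most regions 63 of 167 knockout regions were without a partner, and on the other contigs 18 of 68. The unshared knockout regions on contigs had a median fold of 3.19, a median width of 253 bp and a median pileup of 50. Over all unshared regions of the knockout list the medians were 4.11, 272 bp and 23. Knockout pileups and rates were also divided by 2.31, and regions were kept that still reached the lowest −log10 p of the wild-type list, 3.70. No region was called anew, so this scaling cannot set depth aside. It kept 215 of the 235 contig regions (91.5%), against 95.7% of the whole knockout list. Of the 215, 63 (29.3%) were without a wild-type partner, against 7.37% of the whole list scaled in the same way.

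No contig was marked in wild type only, and 5 were marked in the knockout only, with 7 regions over 1962 bp. On chr4_gl000193_random there were 3 knockout regions. They lay from 86834 to 87064 with a fold of 3.40, a −log10 q of 7.29 and a pileup of 32, from 88808 to 88995 with a fold of 2.81, a −log10 q of 3.62 and a pileup of 23, and from 91189 to 91389 with a fold of 4.39, a −log10 q of 9.89 and a pileup of 30. The region on chrUn_gl000227 from 73802 to 74016 was the highest of the 7, with a fold of 8.002, a −log10 p of 22.4, a −log10 q of 20.1 and a pileup of 33. On chrUn_gl000235 the region from 274 to 759 had a fold of 6.59, a −log10 q of 14.2 and a pileup of 27. On chrUn_gl000234 the region from 36180 to 36523 had a fold of 5.17, a −log10 q of 9.54 and a pileup of 23. On chrUn_gl000232 the region from 883 to 1179 had a fold of 3.06, a −log10 q of 2.23 and a pileup of 12.

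These 7 regions were low within the knockout list: none passed the 32.0 percentile of the knockout list by fold or the 14.1 percentile by pileup. Scaled to the wild-type background rate, 5 of the 7 kept a −log10 p above the lowest of the wild-type list, and the second region of chr4_gl000193_random and that of chrUn_gl000232 did not, at 2.70 and 2.49. Whether depth accounts for the absent wild-type calls was not tested. For the other 5 regions the scaled pileups were 9 to 14 fragments, within 7 fragments of the lowest pileup called in wild type. On chr9_gl000198_random each list held 1 region and they did not overlap: the wild-type region ran from 975 to 1148 with a pileup of 9 and the knockout region from 118 to 858 with a pileup of 15.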

How the data were processed

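H3K4me3 ChIP-seq peak lists of 1 wild-type and 1 ZNF143KO HEC-1-B library were analysed, grouped by the genotype in the labels. Bowtie2, MACS2, SAMtools 1.12 and deepTools, and the builds GRCh37 and hg19, are named in the submitters' processing notes without roles. Parameters and any control library are not given in the sources used here. Each deposited list has the 10-column MACS2 layout. The deposited fold (a ratio), −log10 p and −log10 q columns are the authors' own, and their q-values reach 0.0349 in wild type and 0.0453 in the knockout. The deposited score is 10 times the −log10 q, within 1 unit, and was left out.

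The fold was modelled as pileup plus 1 over rate plus 1 and the p as a Poisson upper tail, and solved for a whole-number pileup and a rate. Relative errors of the −log10 p were at most 1.76e-05 in wild type and 2.67e-05 in the knockout. Tested on simulated lists of 20567 and 20509 regions made with the same formulas, 100% of pileups were recovered. This tests the solving step only, not whether the authors' columns follow the model. The simulated folds did not reach as low as the lowest on chrUn_gl000220. Total read counts were not used here, so depth is known only through the background rates. Regions overlapping the other list by 1 bp or more were counted as shared. Percentiles are within 1 whole list. Software was matplotlib 3.10.9, scipy 1.17.1, numpy 2.4.6 and pandas 2.3.3 under Python 3.11.15. Alternatives were a −log10 q of at least 5, merging within 1 kb, other overlaps, other rank measures and subsets of contigs. The loci, the centring and the scaled knockout list were chosen after seeing the data.

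Regions named singly were every region of chrUn_gl000220 and of contigs marked in 1 genotype, the 5 of highest fold elsewhere in each list, the pairs of largest rise and fall in fold percentile, and the 3 contigs with most regions in each list. Other regions were named after seeing their values. The members and lists were chosen with earlier results of these data known. Contig sequences were not used here, so no sequence is printed.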

Additional observations from a re-analysis of the deposited data

How the results depend on the processing

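Of 93 recomputed values of 21 results, 60 stayed close to the value reported: counts and lengths within 1.5 times it, and shares and medians within its 95% interval. None changed sign. A −log10 q of at least 5 moved none of them past these bounds, and neither did leaving out chrUn_gl000220 or scaling the knockout list. No paired analysis was possible because there was a single library of either genotype, and none could be left out. Merging regions within 1 kb gave median widths of 514.5 bp in wild type and 706.5 bp in the knockout, shared shares of 98.4% and 73.8%, and 10 and 13 regions on chrUn_gl000220. The shared share became 72.5% in wild type and 54.9% in the knockout with a reciprocal overlap of at least 50%, and 98.9% and 77.9% when a gap of up to 1 kb was allowed. It stayed lower in the knockout in each of these. On unplaced contigs alone there were 102 wild-type regions over 47457 bp on 17 contigs (shared share 99.0%) and 147 knockout regions over 78681 bp. On unlocalized contigs alone there were 76 wild-type regions over 35827 bp on 9 contigs (90.8%) and 88 knockout regions over 50819 bp on 10 contigs (71.6%), 1 of them marked in the knockout only. These subsets are smaller by construction. The median percentile became 17.6 and 20.2 by −log10 q and 25.7 and 28.4 by pileup in wild type and knockout, and the rank shift 7.71 and 7.80 points. The higher percentile was thus in wild type by fold and in the knockout by the other measures, and the cause was not tested. The median relative ratio of loci became 0.20 with centring on the genome background rates and 0.21 with loci joined within 5 kb. The cause of the latter was not tested, and 4 loci lay below −2 under both and with overlapping regions only. The lowest called pileups of 7 and 11 fragments limit what an absent region shows.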
